A study of Mus musculus with 6 samples.

Results

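The Bcl2 family genes that decide between survival and death at the mitochondrion were examined in MIN6 cells after chronic epinephrine exposure. The 10 genes were taken by symbol from the 22298 genes of the deposited table, and each symbol matched a single row. They comprise the pro-survival genes Bcl2, Bcl2l1 and Mcl1, the effector genes Bax and Bak1, and the BH3-only genes Bbc3, Pmaip1, Bcl2l11, Bid and Bad.

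MIN6 is a mouse insulinoma line that secretes insulin, so all samples come from 1 transformed line and no other cell or animal was sequenced. The control group (n = 3) received no epinephrine, and the exposed group (n = 3) was cultured with 100 nM epinephrine for 3 days and then without it for 2 days in the scheme of the study. The day of RNA collection is not named in the sources used here, so whether the sequenced cells had passed through withdrawal is not known. The methods of the study describe its samples in general as independent biological replicates, while the labels of the sequenced samples give only a replicate number, so p-values measure the spread between these samples.

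Bcl2 family proteins control whether the outer membrane of the mitochondrion stays intact. Pro-survival members bind and restrain Bax and Bak, which otherwise form pores that release cytochrome c and start the caspase cascade. BH3-only proteins sense stress and either occupy the pro-survival members or engage Bax and Bak directly, and in β-cells they link endoplasmic reticulum stress, cytokines and high glucose to apoptosis. Much of this control acts on protein stability, phosphorylation and localisation, which RNA counts do not measure.

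After chronic epinephrine exposure no member passed the test between the groups. Of the 10 genes, 9 had enough counts to be tested, and the quasi-likelihood test in edgeR, adjusted by Benjamini-Hochberg across the 12747 tested genes (FDR, threshold 0.05), called 0 of them higher and 0 lower. Among all genes tested 2.02% were called higher and 0.612% lower. DESeq2 called 0 members higher and 1 lower (Bcl2l11), where it called 3.09% of all genes higher and 1.98% lower. At an unadjusted p under 0.05 edgeR held 1 member higher (Bbc3, which encodes PUMA) and 1 lower (Bcl2l11, which encodes BIM), where 9.19% of all genes were higher and 7.91% lower at that level. The lowest adjusted value in edgeR belonged to Bcl2l11 (FDR 0.0785). The median log2 fold change over the 9 members was 0.07, beside -0.0023 over all genes tested.

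Samples of a group did not overlap with those of the other group for 3 members on normalized CPM (counts scaled to library size by TMM). Mcl1 and Bbc3 were higher and Bcl2l11 was lower in every epinephrine sample than in every control sample. Of all genes tested, 14.3% were higher without overlap and 13.0% lower.

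**Figure D1:**
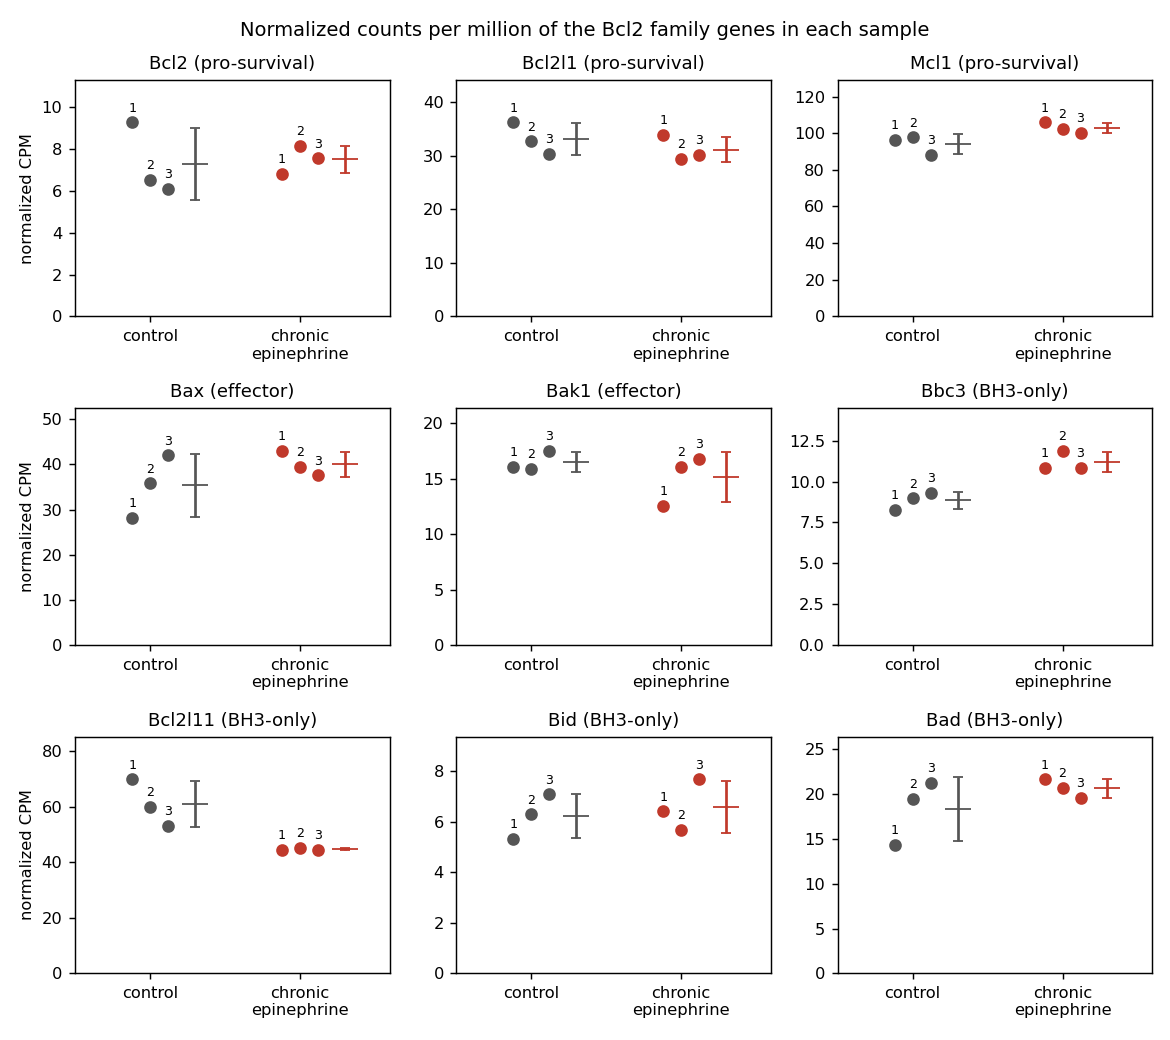
Normalized CPM (vertical axes, from 0) of the 9 tested genes in each of the 3 control samples (grey) and 3 chronic epinephrine samples (red), with replicate numbers above the points and the mean ± SD beside them. The epinephrine values of Bcl2l11 lie between 44.4 and 45.1, below all controls, and control 1 stands apart from the other controls for Bcl2, Bax and Bad.

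The libraries held 15017065 to 17457583 counts in controls and 15256957 to 18127171 in epinephrine samples, and a count of 0 allows up to 3 counts, or 0.168 to 0.198 CPM (counting error only). Control 1 stood apart. Across 12747 genes, which are not independent replicates, its log2 CPM correlated with those of controls 2 and 3 at 0.979 and 0.978, while controls 2 and 3 correlated at 0.993 and the epinephrine samples at 0.992 to 0.993. Relative to the mean of controls 2 and 3, the median gene of control 1 was at -0.24 on the log2 scale among the 3188 genes with the shortest transcripts and at 0.20 among the 3186 with the longest. For that reason the fold changes of the members are given with and without control 1. The sum of 10 β-cell markers was 46978 to 62979 CPM in the controls and 57147 to 59234 after epinephrine, and none was at 0 in every sample. Ins2 and Iapp make up most of that sum, and 2 of the 10 markers fell, Slc2a2 by 0.76 and Ins1 by 0.50 on the log2 scale (edgeR FDR 0.00434 and 0.0152). Controls 2 and 3 also held RNA of a hepatocyte list (20 genes, summed CPM 102 and 243, against 23.4 in control 1 and 20.3 to 22.1 after epinephrine), with Alb at 33.9 and 82.3 CPM in them and at most 0.448 elsewhere. The sums were 177 to 214 in the controls and 379 to 412 CPM after epinephrine for 7 markers of other islet cells. These sums were nearly all Gcg. For 10 leukocyte markers the sums were 1.14 to 3.30 and 3.36 to 4.56 CPM. Most of the leukocyte sum after epinephrine was Cd68, at 3.38, 2.13 and 2.98 CPM, beside 0.712, 0.343 and 0.563 in the controls. Of the tested markers, edgeR called 1 of 3 for other islet cells and 1 of 2 for leukocytes higher (2.02% of all genes higher, 0.612% lower). The sums were 1.89 to 24.8 and 2.31 to 20.0 CPM for 10 fibroblast markers. For 10 exocrine markers they were at most 0.842, and 4 of these markers were at 0 in every sample. The part of these cells or RNAs in the results was not tested, and in bulk RNA a change in the share of a cell type and a change in RNA per cell cannot be told apart.

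The order of the members by level was read from FPKM, the deposited values per length of transcript, since counts of genes of unequal length are not comparable. Bax had the highest level, with 39.5 ± 7.15 FPKM in the control group and 43.7 ± 3.35 after epinephrine (SD, n = 3). Mcl1 followed with 27.8 ± 1.87 and 30.5 ± 1.34 FPKM, and Bad with 18.2 ± 3.68 and 20.3 ± 1.14. Bcl2l1 and Bcl2l11 had nearly the same level in the controls, 14.5 ± 1.97 and 14.2 ± 2.06 FPKM, and 13.9 ± 1.98 and 10.5 ± 0.285 after epinephrine. Bak1 was at 10.6 ± 0.810 and 8.71 ± 1.67 FPKM, and Bbc3 at 6.95 ± 0.388 and 8.48 ± 2.64. Bid was at 2.86 ± 0.360 and 2.98 ± 0.464 FPKM, and Bcl2 was the lowest of the tested members at 1.03 ± 0.257 and 1.07 ± 0.110.

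The same order of means held in both groups. In the controls, neighbours in this order overlapped for Bad with Bcl2l1 and for Bcl2l1 with Bcl2l11. After epinephrine only Bak1 and Bbc3 overlapped with each other, and the ranges of all other neighbours were apart. Bcl2, the founding member of the family, was below Mcl1 and Bcl2l1 in FPKM in every sample.

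**Figure D2:**
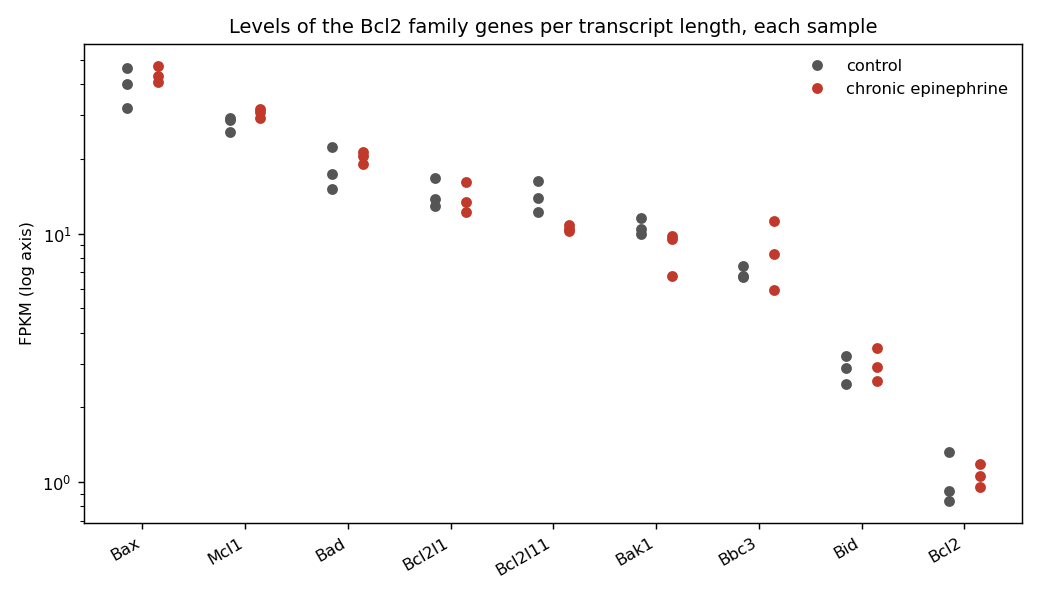
FPKM of the 9 tested genes (vertical log axis) in each control sample (grey) and each chronic epinephrine sample (red), ordered by the mean in the control group. Bax lies highest, at 32.1 to 47.3 FPKM over all samples, and Bcl2 lowest, at 0.840 to 1.32.

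The summed level of each role was compared within samples on FPKM, as a description with no test. The 3 pro-survival genes summed to 47.1, 43.4 and 39.4 FPKM in controls 1, 2 and 3 and to 47.9, 45.2 and 43.6 after epinephrine. The 2 effector genes summed to 42.0, 50.4 and 57.9 FPKM in the controls and to 54.1, 52.8 and 50.3 after epinephrine. The 5 BH3-only genes summed to 40.6, 40.9 and 45.2 and to 42.6, 45.5 and 38.7 FPKM. The groups overlapped for each role, and the difference of the means was 2.25 FPKM for the pro-survival, 2.32 for the effector and 0.0333 for the BH3-only genes. Each of these was smaller than the SD of the control group, which was 3.84, 7.93 and 2.55 FPKM. The differences rested on single libraries, since without control 1 they were 4.14, -1.71 and -0.758 FPKM, and the pro-survival difference was 0.307 without control 3. Over all fits with a sample left out, the effector difference ran from -1.71 to 6.21 and the BH3-only difference from -1.58 to 1.82 FPKM.

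Among the pro-survival genes, Bcl2 (ENSMUSG00000057329, minus strand of GRCm38, chr1:106538178-106714274) encodes the protein that blocks release of cytochrome c. Its normalized CPM were 9.26, 6.52 and 6.07 in controls 1, 2 and 3 and 6.82, 8.12 and 7.54 in chronic epinephrine 1, 2 and 3, from 97 to 145 counts. Control 1 was the highest of all samples, and every epinephrine sample lay between it and the other two controls. The log2 fold change was 0.05 (SE 0.18, 95% interval -0.37 to 0.46, FDR 0.925), well within the spread of the controls. Without control 1, every epinephrine sample was above both remaining controls and the log2 fold change was 0.25 (edgeR FDR 0.256), so the estimate rests on that library. Of its 50-base transcript windows 5.25% occurred in other genes, 505 in all.

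Bcl2l1 (ENSMUSG00000007659, minus strand, chr2:152780668-152831728) encodes BCL-XL, the pro-survival protein of the mitochondrial membrane, together with a shorter splice form of opposite action that gene counts do not separate. It had 36.3, 32.7 and 30.4 CPM in the controls and 33.9, 29.4 and 30.2 after epinephrine. The groups overlapped, with control 1 the highest and chronic epinephrine 2 the lowest. This gave a log2 fold change of -0.09 (SE 0.10, 95% interval -0.32 to 0.15, edgeR FDR 0.718), and it was -0.019 without control 1 (FDR 0.906).

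Mcl1 (ENSMUSG00000038612, plus strand, chr3:95658788-95663176) encodes a short-lived pro-survival protein that depends on continued translation. It had 96.5, 97.7 and 88.0 CPM in the controls and 106, 103 and 100.3 after epinephrine. Every epinephrine sample was above every control, by a small margin. The log2 fold change was 0.13 (SE 0.08, 95% interval -0.06 to 0.32, edgeR FDR 0.465), and a two-sided exact permutation test gave p = 0.1, the lower bound of that test for groups of 3. Without control 1 it was 0.15 (FDR 0.0719), and it was not called under any alternative.

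Bax (ENSMUSG00000003873, minus strand, chr7:45461697-45466898) encodes a cytosolic effector that moves to the mitochondrion on activation. It had 28.2, 35.8 and 42.0 CPM in the controls and 43.0, 39.4 and 37.6 after epinephrine. Control 1 was the lowest sample by a wide margin, 0.46 below the mean of controls 2 and 3 on the log2 scale, and the groups overlapped. Its log2 fold change was 0.18 (SE 0.14, 95% interval -0.15 to 0.50, edgeR FDR 0.569). It was 0.04 without control 1 (FDR 0.752) and 0.32 without control 3 (FDR 0.267). Of its windows 8.51% were shared with Gm45808, which overlaps it on the same strand.

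Bak1 (ENSMUSG00000057789, minus strand, chr17:27019810-27029009) encodes the effector that resides in the mitochondrial membrane. It had 16.1, 15.9 and 17.5 CPM in the controls and 12.6, 16.1 and 16.8 after epinephrine, where chronic epinephrine 1 was the lowest and the other 2 samples lay among the controls. Bak1 had a log2 fold change of -0.12 (SE 0.13, 95% interval -0.42 to 0.18, edgeR FDR 0.685), and it was -0.14 without control 1 (FDR 0.410). Without chronic epinephrine 1 it was -0.0042 (FDR 0.992), so the estimate rests on that library. On the deposited FPKM the samples read 9.96, 10.4 and 11.5 in the controls and 6.78, 9.80 and 9.54 after epinephrine, with no overlap. The transcript length that makes counts and FPKM meet was 1511 to 1658 bases in the controls and 1616 to 1844 after epinephrine, so the FPKM of this gene carries a difference in the assigned length as well as in counts. Of its windows 17.1% were shared with Ggnbp1 on the other strand, and whether counting used strand is not stated.

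The ratio of Bax to Bcl2 was compared within each sample, which does not depend on scaling between libraries. The log2 ratio of their counts was 1.61, 2.46 and 2.79 in controls 1, 2 and 3 and 2.66, 2.28 and 2.32 after epinephrine. Control 1, low in Bax and high in Bcl2, had the lowest ratio, and the groups overlapped. The means were 2.29 ± 0.609 and 2.42 ± 0.208 (SD, n = 3), a difference of 0.13, and the difference was 0.08 on FPKM. Leaving out a sample moved it between -0.21, without control 1, and 0.38, without control 3.

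Among the BH3-only genes, Bcl2l11 (ENSMUSG00000027381, plus strand, chr2:128126038-128162547) encodes BIM, which binds every pro-survival member and can activate Bax directly. Its normalized CPM were 69.8, 59.9 and 53.2 in controls 1, 2 and 3 and 44.5, 45.1 and 44.4 after epinephrine, from 672 to 1078 counts. Each epinephrine sample lay below every control, and the epinephrine samples differed from each other far less (SD 0.377) than the controls (SD 8.35). The log2 fold change was -0.45 (SE 0.11, 95% interval -0.70 to -0.20), a mean 26.7% lower, with an unadjusted p of 0.00297 and an FDR of 0.0785 in edgeR. A two-sided exact permutation test gave p = 0.1, the lower bound for 3 samples against 3.

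The call for Bcl2l11 depended on the processing while its direction did not. Without control 1, the control with the highest value, the difference was smaller (-0.34, SE 0.07) and passed the test (edgeR FDR 0.000371), being the only member among 9 to do so where 12.1% of all genes were called higher and 9.46% lower. DESeq2 also called it (-0.46, adjusted p 0.0163). An edgeR fit that offset the length and GC content of transcripts, added once the data had been seen, called it as well (-0.41, FDR 0.00653), again as the only member, where 5.51% of all genes were higher and 4.92% lower. Over all 16 alternatives its log2 fold change lay between -0.54 and -0.34 and its FDR between 0.000371 and 0.331. On FPKM the samples were also apart, at 16.3, 13.9 and 12.3 in the controls and 10.8, 10.4 and 10.3 after epinephrine.

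Bbc3 (ENSMUSG00000002083, plus strand, chr7:16308393-16318205) encodes PUMA, a target of p53 and of the CHOP branch of the stress response. It had 8.29, 8.97 and 9.32 CPM in the controls and 10.9, 11.9 and 10.8 after epinephrine, from 128 to 212 counts. All 3 epinephrine samples were above all controls, with little spread within either group. Its log2 fold change was 0.34 (SE 0.11, 95% interval 0.08 to 0.59), a mean 26.3% higher, with an unadjusted p of 0.0163 and an FDR of 0.178 in edgeR. It was not called under any of the 16 alternatives, where its FDR lay between 0.0836 and 0.623, and its log2 fold change was 0.29 without control 1.

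On FPKM the epinephrine samples of Bbc3 were 8.31, 11.2 and 5.93 against 6.67, 6.78 and 7.39 in the controls, so chronic epinephrine 3 lay below the controls on that scale. The transcript length behind those values was 1256 to 1326 bases in the controls but 1299, 1043 and 1813 bases in chronic epinephrine 1, 2 and 3. The counts of chronic epinephrine 3 were thus divided by a longer transcript than those of the other samples, and the level of Bbc3 per length was uncertain.

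Bad (ENSMUSG00000024959, plus strand, chr19:6941861-6951899) encodes a BH3-only protein that phosphorylation by survival kinases inactivates and that has a role in glucose metabolism of β-cells. It had 14.4, 19.4 and 21.2 CPM in the controls and 21.6, 20.7 and 19.6 after epinephrine. Control 1 was again the lowest, 0.49 below the mean of the other two on the log2 scale, and the groups overlapped. Bad had a log2 fold change of 0.17 (SE 0.15, 95% interval -0.17 to 0.50, edgeR FDR 0.606). It was 0.02 without control 1 and 0.28 without control 3 (edgeR FDR 0.363 for the latter). Of its windows 17.2% were shared with Gpr137 on the other strand.

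Bid (ENSMUSG00000004446, minus strand, chr6:120891930-120916853) encodes the protein that caspase-8 cleaves to carry a death receptor signal to the mitochondrion. It had 5.31, 6.29 and 7.07 CPM in the controls and 6.41, 5.66 and 7.67 after epinephrine, with wide overlap. Bid had a log2 fold change of 0.07 (SE 0.17, 95% interval -0.31 to 0.46, edgeR FDR 0.856), and it was -0.027 without control 1 (FDR 0.936). Of its windows 16.4% were shared with Bcl2l13 on the other strand.

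Pmaip1 (ENSMUSG00000024521, plus strand, chr18:66458533-66465565) encodes NOXA, which binds Mcl-1. It had 1, 0 and 1 counts in the controls and 0 in every epinephrine sample, at or under the limit that a count of 0 allows, so it was neither tested nor given a fold change. Its transcripts shared no window with another gene.

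**Figure D3:**
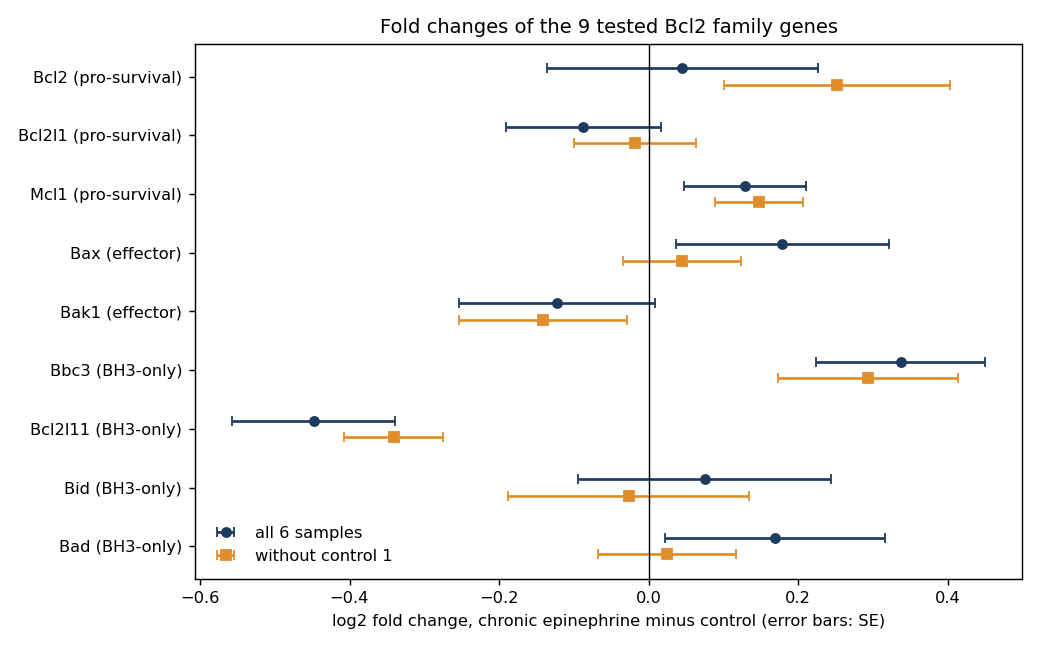
Log2 fold change of each tested gene (horizontal axis, chronic epinephrine minus control), with all 6 samples (blue circles) and without control 1 (orange squares), and with the SE as error bars. Bcl2l11 lies at -0.45 and -0.34, while Bax and Bad move from 0.18 and 0.17 to 0.04 and 0.02 without control 1.

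The profiles of the members over the 6 samples were compared by the root mean square difference of centred log2 CPM. Bax and Bad were nearest each other, at 0.038 on the log2 scale, and both were lowest in control 1 and highest in chronic epinephrine 1. Bcl2l1 and Mcl1 were nearest each other at 0.13, Bbc3 was nearest Mcl1 at 0.14, Bid nearest Bad at 0.17, Bcl2 nearest Mcl1 and Bcl2l11 nearest Bcl2l1 at 0.19 each, and Bak1 nearest Bid at 0.21. Of all genes tested, the profiles most like that of Bcl2 were those of Raph1, Nckipsd and Slc4a8, at 0.033, 0.047 and 0.047.

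The departure of control 1 differed between members with long and short transcripts. Bcl2 (7191 bases) and Bcl2l11 (5036 bases), with the longest transcripts, were 0.55 and 0.31 above the mean of controls 2 and 3 on the log2 scale. Bax (1100 bases) and Bad (1533 bases), with the shortest, were at -0.46 and -0.49. Between them, Bbc3 (1814 bases) was at -0.14, Bak1 (2387) at -0.06, Bid (2415) at -0.32, Bcl2l1 (2568) at 0.20 and Mcl1 (3418) at 0.06. The epinephrine means showed no such order relative to controls 2 and 3, with the median gene between -0.0064 and 0.01 in 4 equal classes of length. The part of transcript length in single members was not tested, and under the length and GC offset Bcl2, Bax and Bad were at 0.10, 0.10 and 0.09 (edgeR FDR 0.698, 0.640 and 0.687).

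**Figure D4:**
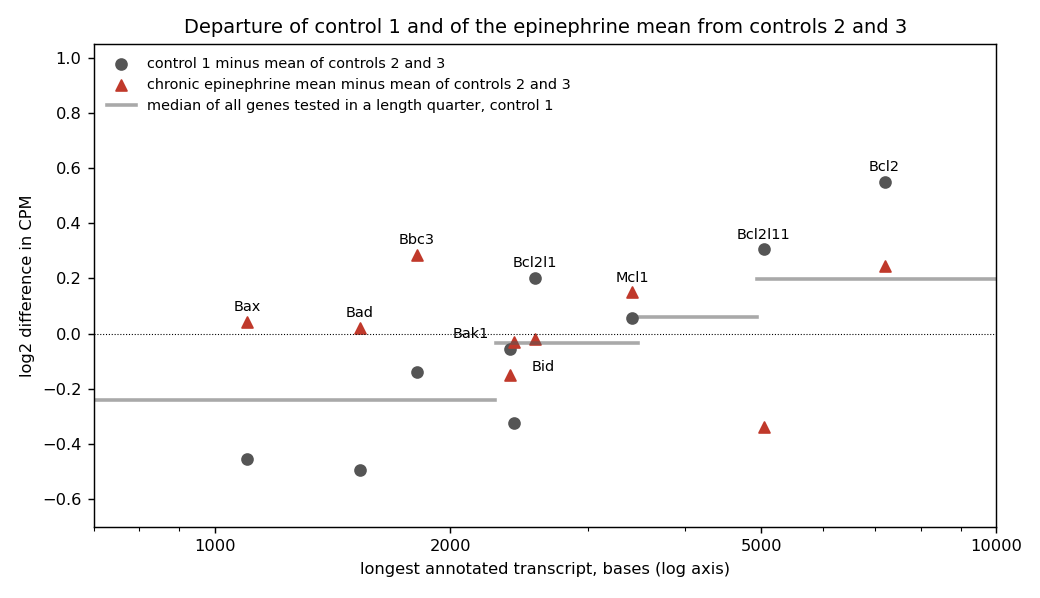
Log2 difference in CPM from the mean of controls 2 and 3 (vertical axis) against longest annotated transcript in bases (horizontal log axis), for control 1 (grey circles) and the epinephrine mean (red triangles) of the 9 tested genes. Grey lines give the median of control 1 over all genes tested in each of 4 length classes, from -0.24 to 0.20, and the end classes run beyond the plot.

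Bases upstream of the start sites are shown for Bcl2l11 and Bbc3, the members whose groups lay apart in opposite directions among the BH3-only genes. RefSeq promoters on GRCm38.p6 were taken for 9 of the 10 members, 15 promoters in all, and Pmaip1 was left out of this search. The 250 bases before each start were searched on both strands. FOXO factors, which survival signalling through Akt keeps out of the nucleus, are known activators of both genes, and their element was searched as GTAAACA. It stood in 1 promoter of Bcl2l11, 227 bases before the start, and in 1 promoter of Bbc3, 167 bases before the start. It was in no promoter of the other members searched, and in 3.17% of all 32851 promoters. The promoter of Bcl2l11 (plus strand, chr2:128125788-128126037) and the stretch around the match in Bbc3 (plus strand, chr7:16310084-16310110, where the element reads on the minus strand) are printed 5′ to 3′ with the element in capitals.

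Bcl2l11 promoter: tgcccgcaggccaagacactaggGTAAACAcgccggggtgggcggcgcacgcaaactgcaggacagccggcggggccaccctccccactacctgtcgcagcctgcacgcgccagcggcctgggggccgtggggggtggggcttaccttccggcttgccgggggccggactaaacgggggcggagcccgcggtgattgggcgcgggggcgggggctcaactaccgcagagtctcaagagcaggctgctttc
Bbc3 element: ctggcgggttTGTTTACaaacaatggg

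Of the other motifs, the GC box (GGGCGG) stood in at least 1 promoter of Bcl2, Mcl1, Bax, Bbc3, Bcl2l11, Bid and Bad, and in 32.7% of all promoters. The core of the cAMP response element (TGACG) stood in those of Bcl2 and Bbc3 (17.8% of all promoters), and its full form (TGACGTCA, which contains the core) in no member searched (1.55%). The CHOP-ATF composite element (TGATGNAA) was in no member promoter searched (3.45%), and neither was a TATA box (TATAAA, 12.4%). The E box (CACGTG, 6.02%) was in Bax and Bbc3 and the CCAAT box (CCAAT, 33.8%) in Bbc3, Bcl2l11 and Bad. Members had 1 to 3 promoters, and a member counts if any of them matched. The shares are of single promoters, so the 2 measures are not alike. A match is a description of these letters and not a binding site, and a missing match says only that the letters are not in the window.

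Upstream regulators of the family were examined as a list of 19 genes, all tested, of which 3 rose and 0 fell at an FDR under 0.05 (2.02% and 0.612% of all genes), with a median log2 fold change of -0.10. Those that rose belong to the integrated stress response. Atf4, its transcription factor, had 163, 198 and 208 CPM in the controls and 349, 340 and 349 after epinephrine, a log2 fold change of 0.87 (edgeR FDR 0.00581). Ddit3, which encodes CHOP and is known to induce Bbc3 and Bcl2l11 and to repress Bcl2, had 17.2, 24.5 and 27.9 and then 53.7, 50.5 and 54.0 CPM, a log2 fold change of 1.19 (FDR 0.00853). Trib3, a pseudokinase that inhibits Akt, had 19.9, 17.7 and 15.6 and then 49.2, 47.4 and 43.3 CPM, a log2 fold change of 1.40 (FDR 0.00123). Of these known targets of CHOP, Bbc3 was higher and Bcl2l11 lower without passing the test, and Bcl2 lay within the spread of the controls. The number called was 1 (Trib3) without chronic epinephrine 1 or 2, where 47 of 12899 and 47 of 12902 genes tested were called. It was 2 (Trib3 and Atf4) without chronic epinephrine 3, where 77 of 12977 genes tested were called. Without control 1 it was 6 (4 higher and 2 lower), where 12.1% of all genes were called higher and 9.46% lower.

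Foxo1, named after its values were seen, encodes a FOXO factor and had 111, 69.4 and 67.2 CPM in the controls and 54.9 in each epinephrine sample. Its log2 fold change was -0.58 (edgeR FDR 0.148), and without control 1 it fell by 0.31 on the log2 scale (FDR 0.000275). Foxo3, the other FOXO factor of the list, overlapped between the groups, with a log2 fold change of -0.32 (edgeR FDR 0.344), and was at -0.11 without control 1 (FDR 0.209). Creb1 and Myc, also named after their values were seen, were the other regulators called without control 1 but not with all samples. They were at -0.24 and 0.60 in that fit (edgeR FDR 0.00371 and 0.000358), and at FDR 0.320 and 0.108 with all samples. Under the length and GC offset 4 regulators were called higher, Myc among them (FDR 0.0427), and 1 lower. In that fit 5.51% of all genes were called higher and 4.92% lower. The regulators of highest CPM, which is not scaled to length, were besides Atf4 Usp9x, a deubiquitinase of Mcl-1, and Huwe1, an Mcl-1 ubiquitin ligase. Their log2 fold changes were -0.10 and -0.17 (FDR 0.627 and 0.676), beside the 0.13 of Mcl1 itself.

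Downstream of the family, 22 of 23 caspase and apoptosome genes were tested, 0 were called in either direction by edgeR (1 higher and 2 lower at an unadjusted p under 0.05, beside 9.19% and 7.91% of all genes), and the median was 0.0030. Vdac1, the channel of the outer membrane, Cycs, which encodes cytochrome c, and Birc6, a caspase inhibitor, had the highest CPM of the list, with log2 fold changes of -0.10, 0.33 and -0.08 (FDR 0.608, 0.399 and 0.825). Without control 1 there were 4 called lower and 1 higher, where 9.46% of all genes were called lower and 12.1% higher, and those given here were named after their values were seen. The caspase genes Casp9 and Casp2 fell by 0.35 and 0.26 on the log2 scale, Xiap, a caspase inhibitor, fell by 0.20, and Endog, a mitochondrial nuclease, rose by 0.60 (edgeR FDR 0.00319 to 0.00986). With all samples Casp9, Casp2, Xiap and Endog had FDR values of 0.0991, 0.169, 0.543 and 0.111. DESeq2 called Casp9 alone of this list, as lower (adjusted p 0.0468), where it called 3.09% of all genes higher and 1.98% lower.

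Other members of the family were tested for 8 of 15 genes, 0 of which were called by edgeR (2.02% of all genes higher, 0.612% lower) or by DESeq2 (3.09% and 1.98%), with a median of -0.0088. At an unadjusted p under 0.05 edgeR held 0 of them, beside 9.19% of all genes higher and 7.91% lower. Highest in CPM were Bnip3 and Bnip3l, mitophagy receptors, and Bcl2l2, which encodes the pro-survival protein BCL-W, with log2 fold changes of 0.27, 0.12 and 0.12 (edgeR FDR 0.355, 0.655 and 0.518). Bnip3 had 615, 881 and 862 CPM in the controls and 968, 947 and 930 after epinephrine, with no overlap and with control 1 lowest. The pro-survival A1 genes Bcl2a1a, Bcl2a1b and Bcl2a1d had 0 counts in every sample.

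Death receptor genes, whose signal reaches the family through Bid, were tested for 7 of 10 genes, with a median of 0.02. Of these, 0 were called by edgeR or by DESeq2 and 0 had an unadjusted p under 0.05 in edgeR, beside the same shares of all genes. Tnfrsf1a, Ripk1 and Cflar, the highest in CPM, showed log2 fold changes of -0.11, 0.03 and -0.06 (edgeR FDR 0.728, 0.877 and 0.828). Fas, Fasl and Tnf lay under the limit that a count of 0 allows, with at most 0.129 CPM in any sample.

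**Figure D5:**
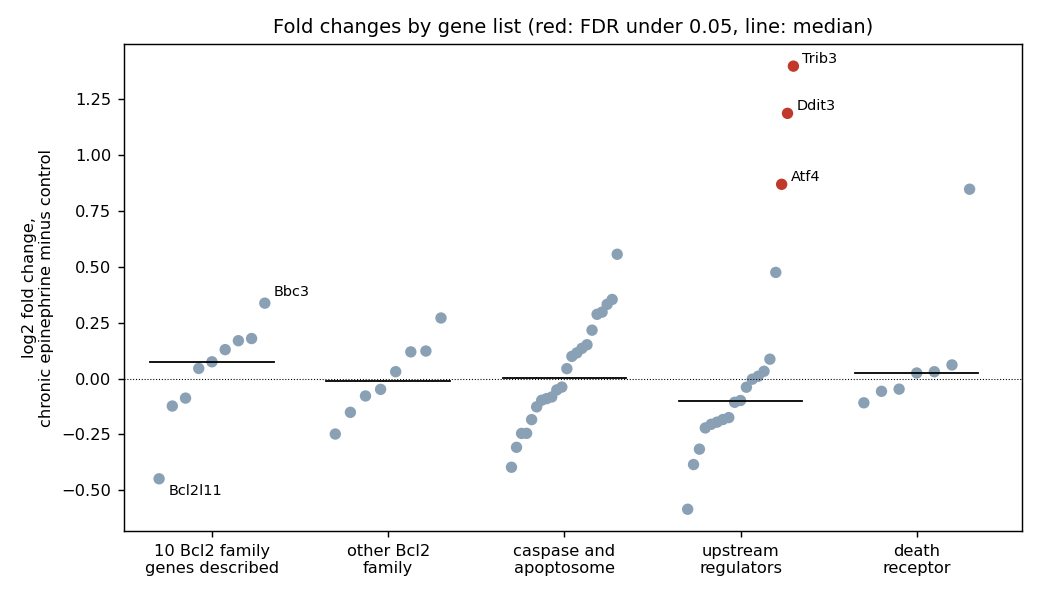
Log2 fold change (vertical axis, chronic epinephrine minus control) of each tested gene in the 5 lists, sorted within a list, with red for an FDR under 0.05 in edgeR and a line at each median. Trib3, Ddit3 and Atf4 are the genes past the threshold, at 1.40, 1.19 and 0.87, and the members run from -0.45 for Bcl2l11 to 0.34 for Bbc3.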

How the data were processed

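RNA-seq libraries of MIN6 cells (3 control, 3 chronic epinephrine) were sequenced on an Illumina Novaseq6000. The deposited table gives an expected count and an FPKM value per gene and sample, both computed by the authors, the first without scaling between samples and the second scaled to transcript length and sample total. The build is GRCm38 in the submitters' processing notes, and the aligner and counter are not given in the sources used here. Of the counts, 8.34% were not whole, and all were rounded to whole numbers. Groups came from the sample titles.

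Genes kept by filterByExpr (12747) were scaled by TMM and compared in edgeR 4.0.16 (quasi-likelihood test, R 4.3.3), with Benjamini-Hochberg adjustment over all of them. SE is the log2 fold change divided by the square root of F. The test was checked on simulated data that held no departing library, so the check does not cover a sample such as control 1. Normalized CPM use TMM, and profiles used log2 CPM with a prior count of 2. Replicate numbers were not treated as pairs, since deviations of same-numbered samples correlated at 0.0502, 0.0677 and -0.0488 across genes. Alternatives were other scalings, other filters, DESeq2 1.42.0, limma 3.58.1 on log2(FPKM + 1) and log2(FPKM + 0.1), a replicate block and leaving out each sample. A length and GC offset (splines with 4 degrees of freedom) was chosen after seeing the data.

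The members, lists and tests were chosen with earlier results of these data known. The text names all 10 members, every gene of the other lists at an FDR under 0.05, the 3 of each list with the highest mean CPM, and the nearest profiles, and marks the rest. Values of 1 gene in these lists are left out. Positions are from GENCODE M21 on GRCm38 (22255 of 22298 identifiers found) and promoters from RefSeq.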

Additional observations from a re-analysis of the deposited data

How the results depend on the processing

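Over all genes the number called by edgeR moved from 335 to 178 with a replicate block, to 729 with DESeq2 and to 1329 with the length and GC offset. It lay between 47, without chronic epinephrine 1, and 2798, without control 1, when a sample was left out. Other scalings, filters and limma on FPKM kept the number of called members at 0. DESeq2 and the offset called 1 member each, and leaving out a sample gave 0 to 1. For the caspase and apoptosome genes the number was 1 with DESeq2, 3 with the offset and 0 to 5 with a sample left out. For the upstream regulators it was 5 with the offset and 1 to 6 with a sample left out. The replicate block changed no call among the members or the other lists, with 0 members and 3 upstream regulators called.

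With a sample left out, the median of the members lay between 0.024 and 0.13. The log2 fold change of Bcl2 lay between -0.069 and 0.25 and that of Bid between -0.046 and 0.18, neither of them called, and the other tested members kept their direction under all 16 alternatives. Scaling moved the median of all genes by less than 0.1 on the log2 scale. Bcl2 and Bid rest on 82 to 145 counts per sample, with 95% intervals of -0.37 to 0.46 and -0.31 to 0.46 on the log2 scale, and Pmaip1 was too low to compare. The causes of these shifts were not tested.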
